A study of Mus musculus with 8 samples.

Results

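The genes described here are 10 genes of the endoplasmic reticulum stress response, *Xbp1*, *Hspa5*, *Hyou1*, *Sdf2l1*, *Creld2*, *Manf*, *Pdia4*, *Derl3*, *Herpud1* and *Ddit3*. They were chosen by name, with earlier results of these data known, among the 26008 genes of the colon data set. All 10 were among the 19127 genes tested. The deposited values were normalized counts, that is, read counts after scaling for the size of the library. The colon was sampled from bone marrow chimeras, which are male C57BL/6JRj wild-type mice that were lethally irradiated and then received donor marrow. In 4 chimeras the marrow came from penk-/- donors, which lack the enkephalin precursor proenkephalin, and in 4 from penk+/+ littermates. Each chimera gave 1 library, and irradiation and marrow transfer were common to both groups. The deletion concerned only cells derived from the marrow, so that the recipient's epithelium, muscle and nerves kept the gene.

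Proteins that are secreted or inserted in membranes fold in the endoplasmic reticulum, and misfolded chains there start the unfolded protein response. Its sensors are IRE1, encoded by *Ern1* and in gut epithelium also by *Ern2*, ATF6, and PERK, encoded by *Eif2ak3*. IRE1 splices the *Xbp1* mRNA, ATF6 is cleaved to a transcription factor, and PERK phosphorylates eIF2alpha, which favours translation of ATF4. Together they raise chaperones, folding enzymes and degradation factors. Professional secretory cells, such as plasma cells, goblet cells and the epithelium of the prostate, express many of these genes constitutively. Splicing of *Xbp1* cannot be read from counts per gene.

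The targeted gene, *Penk*, had 453, 512, 616 and 531 normalized counts in penk-/- replicates 1 to 4 and 473, 496, 560 and 636 in penk+/+ replicates 1 to 4. The genotypes overlapped, so *Penk* in whole colon did not separate chimeras whose recipient cells all carried it. The libraries held 33.1 to 50.7 M reads. Colonocyte markers were abundant in all 8 libraries, with a summed level of 482462 to 758913 normalized counts, led by *Lgals4*, *Krt8* and *Slc26a3*. Another tissue was also present. *Pbsn*, which encodes the prostate secretory protein probasin, was at 0, 7638, 105658 and 4803 normalized counts in penk-/- replicates 1 to 4 and at 13425, 2398, 0 and 111024 in penk+/+ replicates 1 to 4. Thus penk-/- replicate 3 and penk+/+ replicate 4 stood apart from the 6 other libraries, and they are called the Pbsn-rich libraries below. They were also the libraries with the most reads, 50.7 and 48.0 M against 33.1 to 40.4 M, and the part of depth in the results below was not tested.

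Elements that bind ATF6 and XBP1 upstream of these genes are known as the ER stress response element ERSE (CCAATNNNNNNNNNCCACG, with N for any base), ERSE-II (ATTGGNCCACG) and the UPRE core (TGACGTGG). They were searched on both strands in RefSeq promoter windows (GRCm38.p6) of 300 bases, from 250 bases before to 50 after the start of the gene. A window was given for 8 of the 10 genes, all but *Hyou1* and *Manf*. ERSE was in 3 of the 8 windows, those of *Hspa5*, *Creld2* and *Derl3*, and in 0.119% of all 32851 windows. ERSE-II was in 1, that of *Herpud1*, and in 0.0365% of all windows. The UPRE core was in 0 of the 8 and in 0.676% of all windows, and the ATF4 element TGATGNAA was in 1 of the 8, that of *Herpud1*, and in 3.97%. These are matches of letters, not measured binding. The 200 bases before the start are shown for the 4 genes with ERSE or ERSE-II, 5′ to 3′ on the strand of the gene, because these hold the matches. ERSE and ERSE-II share the letters CCACG, and no window of the 8 held both. Capitals mark the fixed bases of the element, which lies on the opposite strand in *Creld2* and *Derl3* and then reads as its reverse complement. By exact match the stretches lie in GRCm39 at chr2:34661902-34662101 for *Hspa5*, chr15:88703649-88703848 for *Creld2*, chr10:75729032-75729231 for *Derl3* and chr8:95112857-95113056 for *Herpud1*, all on the plus strand.
Hspa5: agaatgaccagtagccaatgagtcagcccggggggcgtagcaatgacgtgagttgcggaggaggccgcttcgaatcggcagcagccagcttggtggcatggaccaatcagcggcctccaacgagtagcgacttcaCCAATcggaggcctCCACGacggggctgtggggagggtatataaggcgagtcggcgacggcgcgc
Creld2: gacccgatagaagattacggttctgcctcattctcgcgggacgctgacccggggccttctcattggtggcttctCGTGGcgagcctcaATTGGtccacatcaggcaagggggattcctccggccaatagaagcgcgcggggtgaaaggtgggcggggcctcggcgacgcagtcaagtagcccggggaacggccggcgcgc
Derl3: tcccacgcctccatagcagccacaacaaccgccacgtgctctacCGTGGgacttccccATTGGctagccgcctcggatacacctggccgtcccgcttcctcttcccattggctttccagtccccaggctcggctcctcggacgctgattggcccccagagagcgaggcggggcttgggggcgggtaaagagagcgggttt
Herpud1: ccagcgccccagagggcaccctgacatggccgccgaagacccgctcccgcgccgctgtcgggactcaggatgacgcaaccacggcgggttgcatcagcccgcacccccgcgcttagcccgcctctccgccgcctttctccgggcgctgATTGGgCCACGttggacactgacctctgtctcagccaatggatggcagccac

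The first question was whether deletion of *Penk* in hematopoietic cells changed these genes. It did not do so detectably. With limma on log2(normalized count + 1), 0 of the 10 genes had an adjusted p below 0.05, as had 0 of the 19127 genes tested (0%; the smallest adjusted p of all was 0.132). At an unadjusted p below 0.05 there were 0 of the 10 against 9.63% of all genes. In 0 of the 10 were the genotypes without overlap, against 5.63% of all genes. The paper, using DESeq2 with cutoffs on fold change and false discovery rate, reported a few genes as differing between the groups. Its test, thresholds and set of genes were not those used here. The level was higher in penk-/- chimeras for 4 genes and lower for 6, with a median log2 fold change of -0.02 (0.01 over all genes). These directions turned with single libraries. Without penk-/- replicate 3 the level was higher for 1 and lower for 9 (median -0.27), and without penk+/+ replicate 4 it was higher for 9 and lower for 1 (median 0.12). In bulk tissue, fewer cells of a type and less RNA per cell cannot be told apart.

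*Hspa5*, on chromosome 2, encodes BiP, the main chaperone of the endoplasmic reticulum lumen. It was at 23575, 22060, 40129 and 21615 normalized counts in penk-/- replicates 1 to 4 and at 26308, 24730, 27256 and 33241 in penk+/+ replicates 1 to 4. The Pbsn-rich library of each genotype was the highest of its group, and the genotypes overlapped. The mean ± SD of 4 was 26845 ± 8896 in penk-/- and 27884 ± 3720 in penk+/+ chimeras, with a log2 fold change of -0.10 (95% interval -0.53 to 0.33; limma adjusted p = 0.913).

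*Hyou1* encodes a large chaperone that exchanges the nucleotide of BiP. Its values were 4532, 4926, 8257 and 4453 in penk-/- and 4808, 4847, 5114 and 7382 in penk+/+ chimeras. The 6 other libraries lay within 4453 to 5114, and both Pbsn-rich libraries were far above that range. The genotypes differed by a log2 fold change of -0.03 (interval -0.50 to 0.45; limma adjusted p = 0.984).

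*Sdf2l1* and *Creld2* encode small residents of the lumen, the first a partner of BiP and its cochaperones. *Sdf2l1* was at 785, 693, 1690 and 705 normalized counts in penk-/- and at 907, 819, 773 and 1378 in penk+/+ chimeras. *Creld2* was at 1075, 1107, 2909 and 1076 in penk-/- and at 1357, 1185, 1228 and 2020 in penk+/+ chimeras. In both genes the Pbsn-rich libraries were again the highest, penk-/- replicate 3 first. The log2 fold changes between genotypes were -0.07 (interval -0.73 to 0.58) and -0.02 (interval -0.74 to 0.69).

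*Manf* encodes a secreted protein of the endoplasmic reticulum with neurotrophic activity. It was at 1600, 1658, 2714 and 1495 normalized counts in penk-/- and at 1828, 1619, 1515 and 2188 in penk+/+ chimeras, a log2 fold change of 0.03 (interval -0.39 to 0.46). *Pdia4* encodes a protein disulfide isomerase. It was at 4624, 4746, 7412 and 4428 in penk-/- and at 4862, 4860, 5114 and 5935 in penk+/+ chimeras, a log2 fold change of 0.00 (interval -0.35 to 0.35). Both genes had the same 2 libraries on top.

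*Derl3* and *Herpud1* act in the degradation of misfolded proteins, the first as a membrane component of the retrotranslocation machinery typical of secretory cells and the second as a scaffold of the HRD1 ligase. *Derl3* was at 58.6, 122, 861 and 91.7 normalized counts in penk-/- and at 177, 92.2, 29.6 and 711 in penk+/+ chimeras. Its lowest library, penk+/+ replicate 3, was 1 of the 2 with *Pbsn* at 0, and the other one was next. The spread over the 8 libraries, a coefficient of variation of 121%, was the largest of the 10 genes, and the interval of its log2 fold change of 0.18 ran from -2.11 to 2.47. *Herpud1* was at 4887, 4348, 7978 and 4596 in penk-/- and at 5978, 4853, 5021 and 8221 in penk+/+ chimeras, a log2 fold change of -0.16 (interval -0.64 to 0.33).

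The transcription factor genes behaved otherwise. *Xbp1* was at 9123, 8462, 8916 and 7944 normalized counts in penk-/- and at 9690, 7980, 8039 and 9226 in penk+/+ chimeras, a coefficient of variation of 7.63%, the smallest of the 10. Its log2 fold change was -0.02 (interval -0.20 to 0.16). *Ddit3*, which encodes the factor CHOP induced by ATF4, was at 470, 437, 519 and 384 in penk-/- and at 434, 385, 403 and 411 in penk+/+ chimeras. It had the smallest p of the 10, with 453 ± 56.5 and 408 ± 20.4 (mean ± SD of 4), a log2 fold change of 0.14 (interval -0.09 to 0.37) and a limma adjusted p of 0.701. Neither gene had both Pbsn-rich libraries above all others. The exact permutation test over the 70 assignments of the libraries gave two-sided p of 0.2 to 1 for the 10 genes, where 4 against 4 can give no less than 0.0286.

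**Figure D1:**
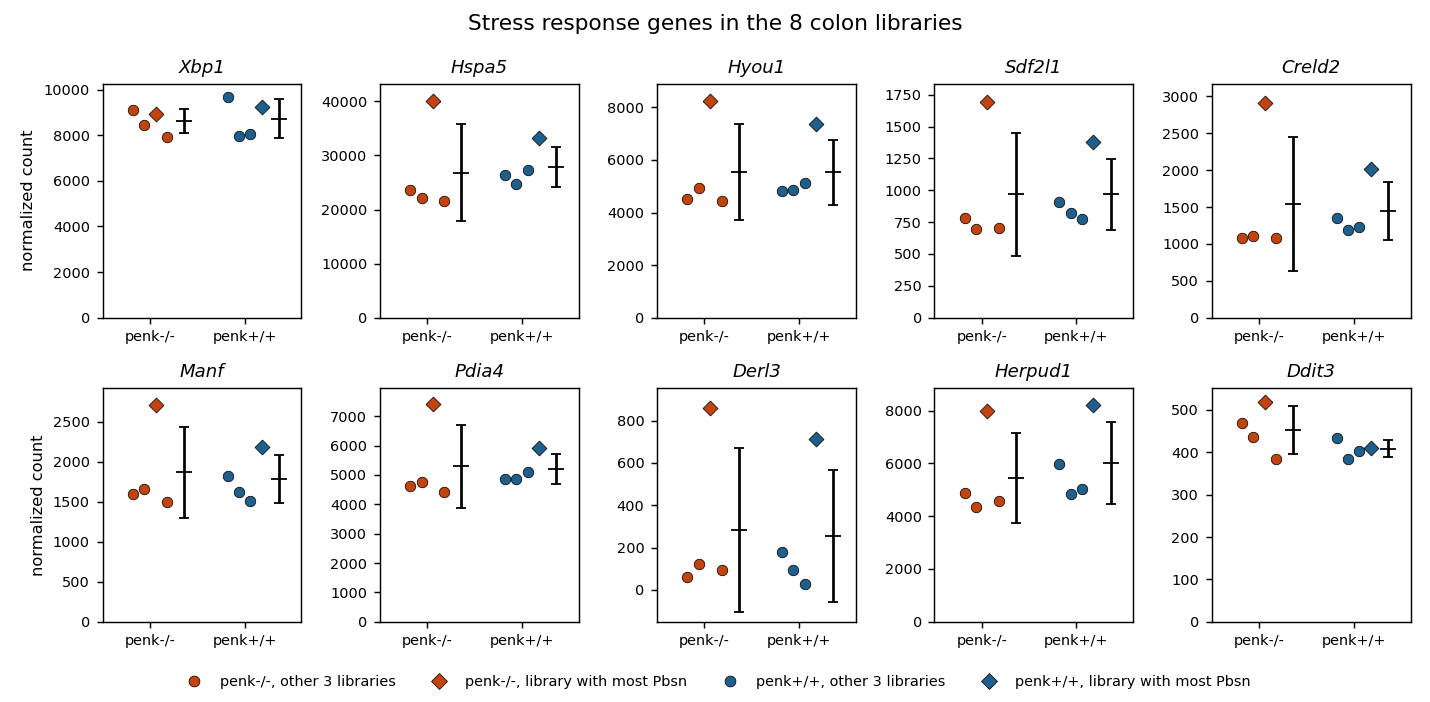
Normalized counts of the 10 genes (vertical axes, from 0 or below) in penk-/- and penk+/+ chimeras, 1 point per library, with diamonds for the library with the most *Pbsn* of each genotype; bars give the mean and SD of 4 libraries. In 8 panels both diamonds lie above all circles, and the exceptions are *Xbp1* and *Ddit3*.

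With both Pbsn-rich libraries left out, 2 of the 10 genes had an unadjusted p below 0.05, against 9.06% of all genes in that fit, and both were lower in penk-/- chimeras. *Hspa5* then had a log2 fold change of -0.22 (adjusted p = 0.469 with limma on 3 against 3 libraries) and *Creld2* of -0.21 (adjusted p = 0.491 with limma). Neither passed the adjustment, and 0 of the 10 genes did so.

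Per kilobase of the main transcript, the mean level over the 6 other libraries was 4898 normalized counts for *Hspa5* and 4337 for *Xbp1*. It was 1587 for *Herpud1*, 1075 for *Hyou1*, 869 for *Pdia4* and 835 for *Creld2*. The lowest were *Manf* at 721, *Sdf2l1* at 701, *Ddit3* at 428 and *Derl3* at 71.6. In the Pbsn-rich libraries *Derl3* reached 591 per kilobase, above the 475 of *Ddit3*, and the order of *Hspa5*, *Xbp1* and *Herpud1* was kept.

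The second question was which of the genes followed *Pbsn* over the 8 libraries. A gene was said to follow it at a Spearman rho of at least 0.8. By this measure 2 of the 10 genes did, *Derl3* and *Manf*, against 2% of the 19126 other genes. *Derl3* had rho = 0.95 (exact permutation test over all pairings, two-sided, p = 0.00129; adjusted over all genes 0.235) and a Pearson r of 0.84 on the log2 scale (exact permutation p = 0.0204). *Manf* had rho = 0.83 (exact permutation p = 0.0172; adjusted 0.739) and r = 0.64 (exact permutation p = 0.0589). The 8 other genes had rho of 0.72 (*Creld2*), 0.59 (*Sdf2l1*), 0.55 (*Pdia4*), 0.54 (*Herpud1*), 0.50 (*Hyou1*), 0.49 (*Xbp1*), 0.47 (*Hspa5*) and 0.26 (*Ddit3*). After adjustment over all genes, 0 genes had a p below 0.05 for rho (smallest 0.0612), with 928 below 0.05 before it. Leaving out penk-/- replicate 2, penk-/- replicate 3, penk+/+ replicate 1 or penk+/+ replicate 4 left 1 gene at the threshold.

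The libraries were not spread evenly over *Pbsn*. They formed 3 clusters, 2 libraries at 0, 4 from 2398 to 13425 and 2 of at least 105658, so that any correlation over all 8 rests on the distance between clusters. Within the 6 libraries with less *Pbsn*, *Derl3* still rose in the order of *Pbsn*, with rho = 0.93 over 6 libraries. *Manf* had 0.64 and *Creld2* 0.38 there, and the 7 others had between -0.23 (*Hspa5*) and 0.26 (*Xbp1*). Leaving out the 2 libraries at 0, which are farthest from the median on the log2 scale, gave a Pearson r of 0.86 (*Pdia4*) to 0.98 (*Derl3*) for all genes but *Xbp1* (0.67) and *Ddit3* (0.66).

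**Figure D2:**
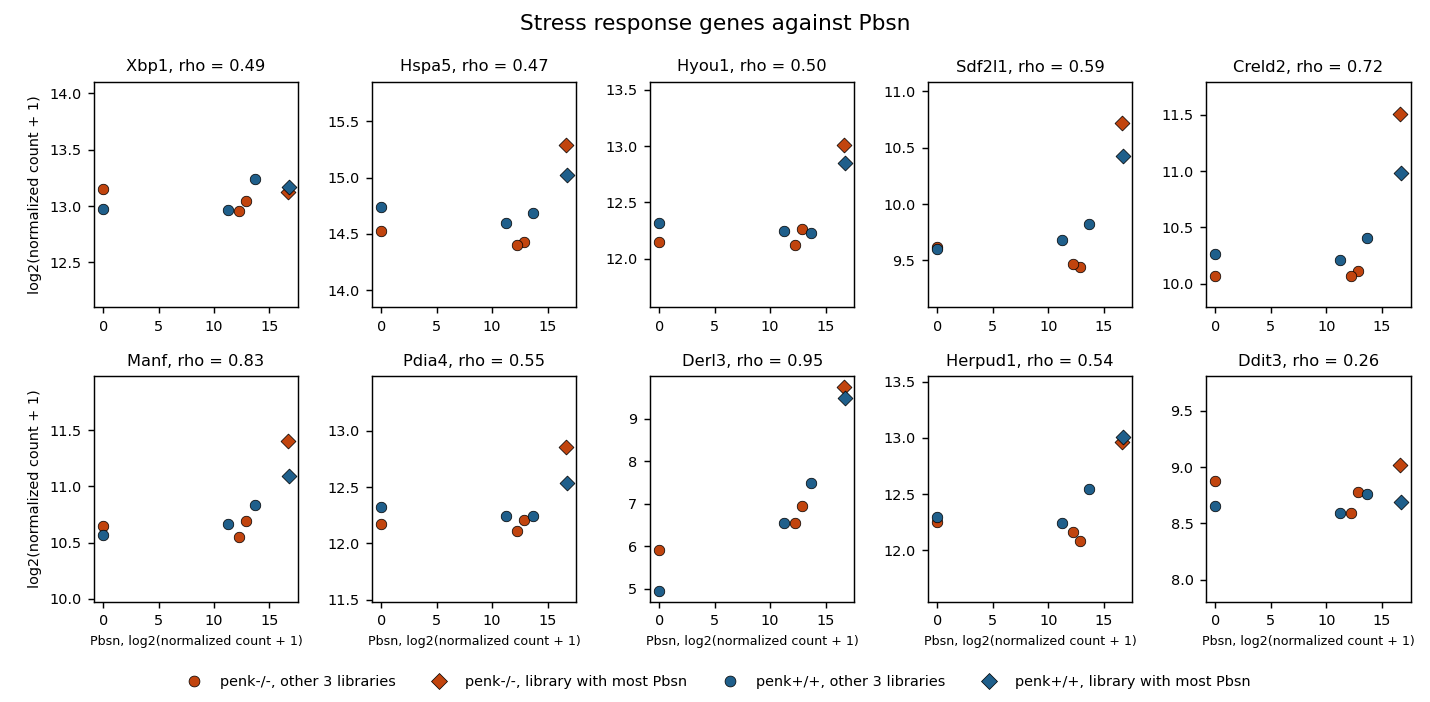
Each of the 10 genes (vertical axes) against *Pbsn* (horizontal axes), both as log2(normalized count + 1), 1 point per library, coloured by genotype, with Spearman rho over 8 libraries above each panel. *Derl3* climbs along the whole range of *Pbsn* (rho = 0.95), whereas most of the others are level up to 13425 normalized counts of *Pbsn* and higher only in the 2 libraries at the right.

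Another way to read the same values was chosen after they had been seen. The 10 genes were also chosen with earlier results of these data known, so shares over all genes beside them are descriptions. In 8 of the 10 genes both Pbsn-rich libraries were above each of the 6 others, against 8% of all genes. The ratio of their mean to the mean of the 6 was 8.25 for *Derl3*, 2.10 for *Creld2* and 1.97 for *Sdf2l1*. It was 1.64 for *Herpud1* and for *Hyou1*, 1.51 for *Manf* and for *Hspa5*, and 1.40 for *Pdia4*. For *Ddit3* it was 1.11 and for *Xbp1* 1.06, within the range of the 6.

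On the linear scale of *Pbsn*, with genotype in the limma fit, the same 8 genes rose with an adjusted p below 0.05. Over all genes 2.08% rose and 0.12% fell. The slope for 100000 normalized counts of *Pbsn* was 3.21 ± 0.45 log2 units for *Derl3* (SE; adjusted p = 0.00725). It was 1.01 ± 0.14 for *Creld2* (adjusted p = 0.0064) and 0.93 ± 0.12 for *Sdf2l1* (adjusted p = 0.00407). *Herpud1* had 0.70 ± 0.08, *Hyou1* 0.68 ± 0.08, *Manf* 0.58 ± 0.10, *Hspa5* 0.56 ± 0.11 and *Pdia4* 0.45 ± 0.09, with adjusted p of 0.00294 to 0.0474 from the same fit. *Xbp1* had 0.10 ± 0.09 (adjusted p = 0.769) and *Ddit3* 0.14 ± 0.11 (adjusted p = 0.729). The call depended on the scale and on single libraries. With log2(*Pbsn* + 1) in the fit, 0 of the 10 genes passed. Without penk-/- replicate 3 only *Creld2* of the 10 passed on the linear scale, and without penk+/+ replicate 4 there were 7. Leaving out penk-/- replicate 1, 2 or 4 or penk+/+ replicate 1 or 2 left 6, with *Hspa5* and *Pdia4* no longer called.

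The Pbsn-rich libraries did not share the excess equally. Over the mean of the 6 others, *Hspa5* was 1.65 times as high in penk-/- replicate 3 and 1.37 times in penk+/+ replicate 4. *Creld2* was 2.48 and 1.72 times as high, and *Pdia4* 1.55 and 1.24 times. For *Herpud1* the ratios were 1.61 and 1.66. The excess in penk-/- replicate 3 was 2.27 times that in penk+/+ replicate 4 for *Pdia4* and 2.05 times for *Creld2*, but 1.24 times for *Derl3* and 0.926 times for *Herpud1*. *Pbsn* itself was higher in penk+/+ replicate 4.

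**Figure D3:**
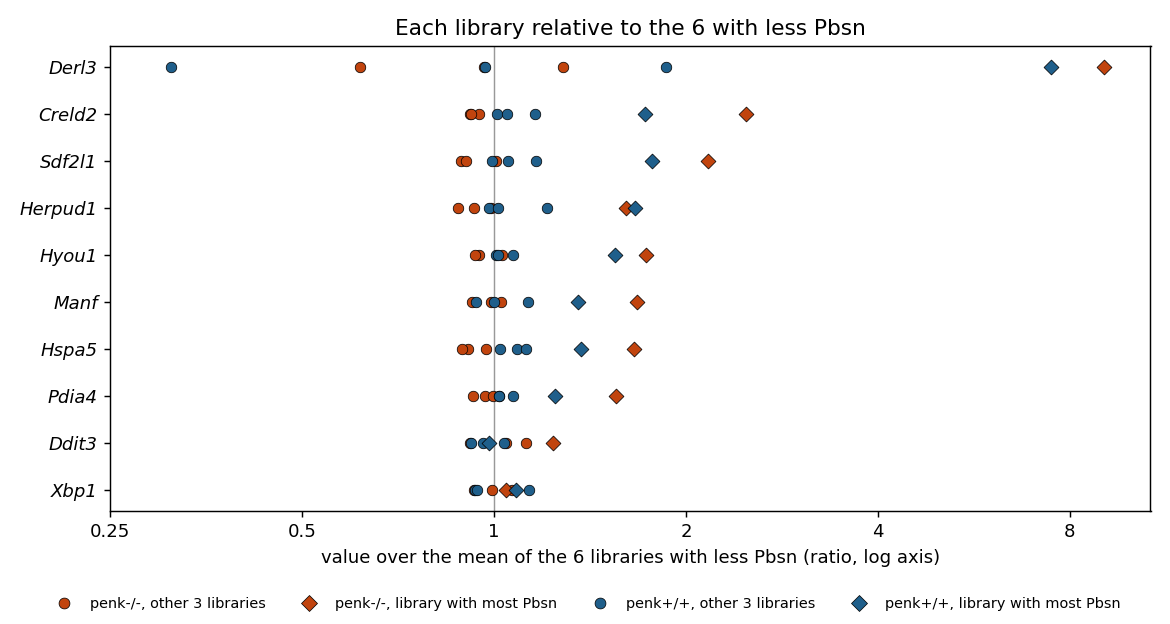
Value of each gene in each of the 8 libraries divided by its mean over the 6 libraries with less *Pbsn* (horizontal axis, ratio on a log axis), 1 row per gene, ordered by the mean of the 2 Pbsn-rich libraries. The diamonds reach 9.04 and 7.46 for *Derl3*, lie between 1.24 and 2.48 for 7 genes, and fall among the circles for *Xbp1*.

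The 8 genes moved together over the libraries, with a Pearson r of 0.759 to 0.983 between them on the log2 scale (28 pairs, median 0.937, n = 8 libraries). The 8 were those called for a rise with *Pbsn* on the linear scale, so high r among them follows in part from that choice. *Xbp1* had r of 0.308 to 0.588 with the 8 genes, and *Ddit3* had 0.437 to 0.667. These correlations also share libraries and size factors and are descriptions. Markers of other secretory cells were set beside the mean centred log2 profile of all 10 genes. Each list entered as its own mean centred log2 profile, in which every gene counts equally, and not as its sum. The prostate and accessory gland markers, 10 of 13 found and led by *Pbsn*, *Tgm4* and *Hoxb13*, had r = 0.84 with the 10 genes. Their sum was 23163 to 58484 in the 6 libraries and 240799 and 254420 in the Pbsn-rich ones, and 4 of the 9 tested beside *Pbsn* passed the slope test. In the 2 libraries with *Pbsn* at 0, the prostate transglutaminase gene *Tgm4* was at 93.9 and 54.2 normalized counts. *Hoxb13*, a list member that distal colon also expresses, had a rho of 0.12 with *Pbsn*, and the list member *Spink1* had -0.17. In penk+/+ replicate 3, where *Pbsn* was at 0, *Hoxb13* at 12164 and *Spink1* at 10895 normalized counts made up most of the 23163. The lower sums are therefore not a measure of prostate tissue. The plasma cell markers, led by *Igha*, *Sdc1* and *Txndc5*, had r = -0.14 with *Txndc5* left out of their profile (10 genes). Of all these markers, *Txndc5* included, 0 of 11 passed. Their sum ranged from 23105 to 59942 and was highest in penk-/- replicate 1. *Igha* ranged from 2968 to 21422 normalized counts, *Sdc1* from 6144 to 9308 and *Txndc5* from 7408 to 8649. The goblet cell markers, led by *Fcgbp*, *Clca1* and *Muc2*, had r = -0.59, and 0 of 12 passed. Their sum was 402786 in penk-/- replicate 3 and 526833 in penk+/+ replicate 4, against 510482 to 659510 in the 6 others. Colonocyte markers had r = -0.30 and smooth muscle markers, led by *Myh11*, *Acta2* and *Actg2*, r = -0.05, with 0 of 11 and 0 of 7 passing. The part of prostate tissue in the rise of the 8 genes was not tested.

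The other marker lists reported here had 0 genes that passed the slope test. Enteroendocrine markers (8 genes, led by *Chgb*, *Chga* and *Pyy*) summed to 11688 to 16158 normalized counts and macrophage and dendritic cell markers (8 genes, led by *Lyz2*, *Csf1r* and *C1qa*) to 8382 to 15379. Of the exocrine pancreas markers 1 of 6 was found, *Cela1*. Transcripts of the mitochondrial genome made up 4.32% to 4.92% of the counts.

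The wider response was examined in 6 lists of genes that did not contain the 10. In the IRE1 and XBP1 list of folding and translocation genes, 5 of 25 rose with *Pbsn* on the linear scale (*Dnajc10*, *Fkbp11*, *Dnajc3*, *Lman1* and *Ssr4*), and in 15 of the 25 both Pbsn-rich libraries were on top, against 2.08% and 8% of all genes. In the ATF6 list of luminal chaperones 1 of 14 rose (*Sil1*), among disulfide enzymes 1 of 14 (*Pdia6*), and in the degradation list 3 of 20 (*Syvn1*, *Edem2* and *Os9*). In the list of PERK and ATF4 targets 4 of 26 rose (*Phgdh*, *Chac1*, *Asns* and *Dnajc3*) and 1 fell (*Nupr1*). The CREB3 family had 0 of 5. *Dnajc3*, which encodes an inhibitor of PERK and cochaperone of BiP, stood in both lists that name it.

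These genes were named after their values had been seen. *Dnajc10*, which encodes a disulfide reductase of the lumen, had 4223, 5836, 20664 and 4730 normalized counts in penk-/- and 6808, 4498, 4432 and 23584 in penk+/+ chimeras. It was thus 4.35 times as high in the Pbsn-rich libraries, and its rho with *Pbsn* was 0.99. *Phgdh*, the first enzyme of serine synthesis, was 3.54 times as high, *Fkbp11*, a prolyl isomerase of secretory cells, 3.39 times, and *Pdia6* 1.89 times. *Nupr1*, a stress-induced nuclear protein, was at 0.619 of the level of the 6 others. The median slope was 0.63 log2 units for the 10 genes, 0.20 for the IRE1 and XBP1 list, 0.17 for the ATF6 list and 0.15 for the PERK list. It was 0.10 for degradation, -0.03 for disulfide enzymes, -0.05 for the CREB3 family and -0.01 over all genes.

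**Figure D4:**
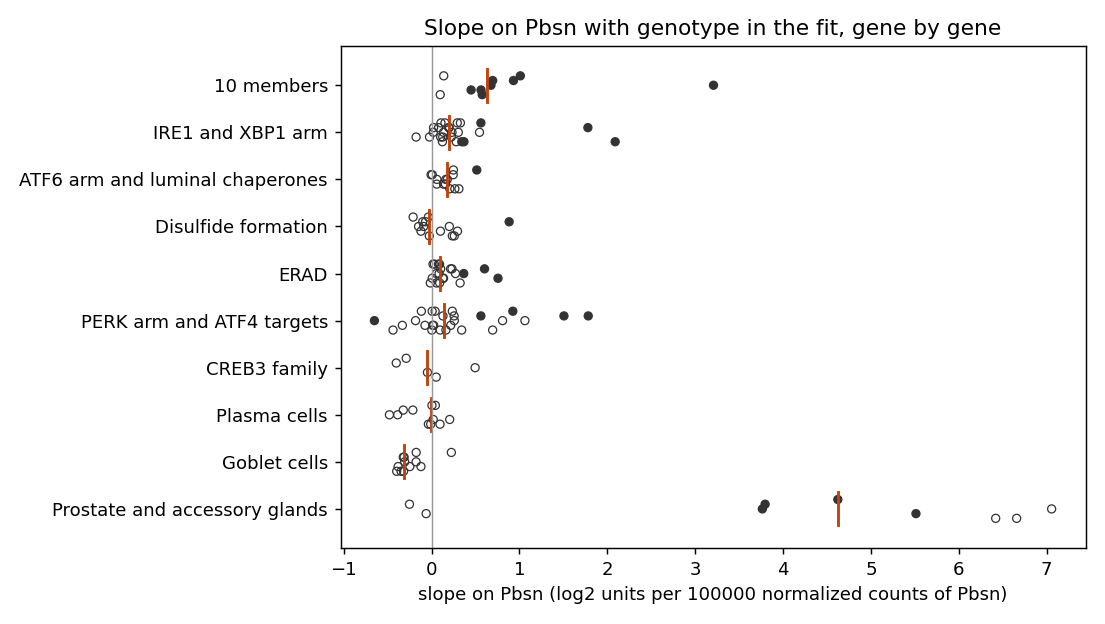
Slope of each gene on *Pbsn*, in log2 units for 100000 normalized counts of *Pbsn* with genotype in the fit (horizontal axis), for the 10 genes, the 6 lists of the response and 3 lists of secretory cell markers; filled points have an adjusted p below 0.05 and vertical bars give the median of a list. The 10 genes have a median of 0.63 with 8 filled points, the plasma and goblet cell markers have none, and *Nupr1* is the filled point below 0.

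Of the sensors and *Atf4*, 0 of 5 passed the slope test. *Ern1* was 1.21 times as high in the Pbsn-rich libraries as in the 6 others (adjusted p of the limma slope 0.298), *Atf6* 1.24 times (0.0971), *Atf4* 1.20 times (0.212), *Ern2* 0.869 times (0.554) and *Eif2ak3* 0.985 times (0.996).

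Between genotypes, 0 genes of each of the 6 lists had an adjusted p below 0.05. At an unadjusted p below 0.05 there were 4 of 26 in the PERK and ATF4 list, 1 of 14 among disulfide enzymes and 0 in the 4 others, against 9.63% of all genes. *Eif2s1*, which encodes eIF2alpha, was at 2681 ± 48.2 against 2357 ± 67.0 normalized counts (mean ± SD, penk-/- first), without overlap, at a log2 fold change of 0.19 (limma adjusted p = 0.346). *Eif2ak3* was at 1842 ± 73.6 and 2152 ± 232, at a log2 fold change of -0.22 (limma adjusted p = 0.450). Its genotypes barely missed overlap, with the highest penk-/- library at 1913 and the lowest penk+/+ library at 1924. Genes without overlap were 3 of 26 in the PERK and ATF4 list (*Eif2s1*, *Eif2ak3* and *Nars1*) and 1 of 14 among disulfide enzymes. Over all genes the share was 5.63%. *Ppp1r15a*, the stress-induced phosphatase subunit that reverses eIF2alpha phosphorylation, had -0.30 (limma adjusted p = 0.453), and *Atf4* had 0.24. None of these passed the adjustment.

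In the other lists the smallest p were larger. *Txndc5* among the disulfide enzymes had a log2 fold change of 0.13 without overlap (limma adjusted p = 0.481), followed by *Ero1b* with -0.20 and *Prdx4* with 0.20. In the IRE1 and XBP1 list the first were *Srprb* (0.13), *Dnajb11* (-0.10) and *Kdelr3* (0.20), and in the ATF6 list *Canx* (-0.11), *Cnpy2* (-0.14) and *Uggt1* (-0.09). In the degradation list they were *Ube2g2* (0.25), *Herpud2* (-0.10) and *Edem1* (-0.13), and in the CREB3 family *Creb3l1* (0.15), *Creb3l3* (0.21) and *Creb3* (0.04). *Ern1*, *Ern2* and *Atf6* differed by 0.14, 0.05 and -0.09. Outside the PERK list and *Txndc5*, 0 of these were below an unadjusted p of 0.05.

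Among genes outside the 10 whose promoter window holds the ERSE letters shown above, 18 were tested. Of these 4 rose with *Pbsn* on the linear scale (*Pdia6*, *Dnajc3*, *Syvn1* and *Acacb*, which encodes an acetyl-CoA carboxylase and is outside the lists), 0 fell, and in 7 both Pbsn-rich libraries were on top. Also named after their values were seen, the major chaperones *Calr*, *Hsp90b1* and *Canx* were among the 14 that did not pass, with levels 1.21, 1.21 and 1.05 times those of the 6 others. For the UPRE core it was 1 of 130, for ERSE-II 1 of 8 and for the ATF4 element 16 of 372, where 3 fell. Over all genes 2.08% rose, 0.12% fell and 8% had both Pbsn-rich libraries on top.

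The genes most like the 10 were those with the highest Pearson r with their mean centred log2 profile over 8 libraries. They were *Slc6a2*, *Dnaja4*, *Acbd6*, *Tle1*, *Man1a*, *Pgm2l1*, *Apoc1*, *Wif1*, *Gsta2* and *Entpd3*, with r of 0.976 to 0.990. *Man1a*, a mannosidase of the Golgi that trims glycans of secreted proteins, was at 4318, 4852, 15634 and 4738 normalized counts in penk-/- and at 5820, 4347, 4029 and 14163 in penk+/+ chimeras. *Slc6a2*, the noradrenaline transporter, was 21.3 times as high in the Pbsn-rich libraries as in the 6 others, and *Acbd6* 1.19 times. All 10 of these had a rho with *Pbsn* of 0.73 to 0.97, which follows in part from how they were picked. The profile itself was highest in the Pbsn-rich libraries, at 0.76 and 0.52 log2 units, against -0.34 to 0.02 in the 6 others.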

How the data were processed

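RNA-seq libraries were made from colon biopsies of 8 chimeras, 4 per genotype, with a stranded poly-A kit. Per the labels and the study's methods, reads were checked with FastQC and aligned with STAR 2.7.8a on GRCm39, and the authors used DESeq2 1.30.0. The deposited signal is a normalized count per gene, scaled by the authors for library size. The strand setting of the counting is not given in the sources used here, so reads of overlapping antisense genes may be included. Of the 26008 identifiers, 25776 were matched to GENCODE M39 names on GRCm39.

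The values of a library are multiples of a common step (100% within a tolerance of 0.01), from which reads were recovered, 33.1 to 50.7 M reads (median 38.5). At this depth the spread between libraries, not counting error, limits most members. The limma p-values set a difference against the spread between libraries of a genotype. With 1 library per mouse, differences between mice and between samples of tissue cannot be told apart. The recovered reads of penk-/- replicate 1 were not accepted as counts, since its step is close to 1. The planned count tests on 8 libraries were therefore not run, and edgeR 4.0.16 and DESeq2 1.42.0 were run on the 7 other libraries.

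The genotype contrast used eBayes with trend from limma 3.58.1 under R 4.3.3 (two-sided, Benjamini-Hochberg over all genes) on log2(value + 1) for the 19127 genes with a mean of at least 10. A fold change on this scale understates that of low genes. Slopes on *Pbsn* used the same fit with genotype. Correlations were tested over all pairings of the 8 libraries. The tests were checked on simulated data. Other steps used pandas 2.3.3, scipy 1.17.1 and numpy 2.4.6 under Python 3.11.15, with matplotlib 3.10.9 for plots. Replicate numbers named different mice, and the correlations of same-numbered libraries were -0.321 to 0.145. The main fit did not pair them. With a replicate block in the limma fit, 2938 genes had an unadjusted p below 0.05, against 1842 without it. Whether the numbers stand for a shared step was not tested.

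The members and lists were chosen with earlier results of these data known. Named genes are the 10 members, *Pbsn*, *Penk*, the sensors and *Atf4*, the 3 genes with the smallest p of each list, the 10 most like the members, and the 3 most abundant markers of each cell type. Others were named after their values were seen. 1 list of cell type markers is not reported here. Alternatives were other pseudocounts, filters and TMM factors (on the normalized values), *Pbsn* as a covariate, a replicate block and libraries left out. Slopes on *Pbsn* and the count tests on 7 libraries were added after the data were seen.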

Additional observations from a re-analysis of the deposited data

Results flagged for a closer look

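In 9 of the 20 groups examined (10 genes in each genotype, 4 libraries each), the highest library was separated from the next by more than Dixon's 95% critical value of the group's range. Chance flags about 1 in 20 groups, or 1 here. The gap over the range in penk-/- replicate 3 was 0.894 for *Hspa5*, 0.876 for *Hyou1*, 0.908 for *Sdf2l1* and 0.983 for *Creld2*. It was 0.867 for *Manf*, 0.893 for *Pdia4*, 0.920 for *Derl3* and 0.851 for *Herpud1*. In penk+/+ replicate 4 it was 0.881 for *Hyou1*. Both are the libraries with the most *Pbsn*, and the flags of the 10 genes are not independent of each other, since the genes moved together.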

How the results depend on the processing

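In all 18 other settings 0 of the 10 genes were called between genotypes. Over all genes, 0 were called in the limma fit, 1 with the replicate block, 5 with edgeR and 356 with DESeq2 on 7 libraries, and 0 to 6 with each replicate left out, 6 of them without penk-/- replicate 1. The cause was not tested. At an unadjusted p below 0.05 the 10 genes numbered 0 as reported, 2 without both Pbsn-rich libraries and 0 to 1 with each replicate left out (1 without penk-/- replicate 3). The replicate block changed no call of the 10 genes, and their median log2 fold change, -0.27 to 0.12 with each replicate left out, moved by less than the spread between replicates but changed sign. The count of genes following *Pbsn*, 2 by rho, was 1 by Pearson r on log2 values, 1 after centring by genotype, 8 by Pearson r on the linear *Pbsn* value, 1 without both Pbsn-rich libraries, 8 by the linear slope and 0 by the log2 slope, and 1 to 3 with each replicate left out. The linear slope called 1 to 8 with each replicate left out, 1 without penk-/- replicate 3. The planned edgeR and DESeq2 tests on 8 libraries were not run, since the recovered reads of penk-/- replicate 1 were not accepted as counts. With 4 mice per genotype, differences within the intervals given were not excluded.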
